A study of Caenorhabditis elegans with 4 samples.

Results

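The T09A5.8 binding sites described here are those in the centres of chromosomes II, III, IV and V of Caenorhabditis elegans, regions in which sites of this chromatin protein were sparse. A site was a merged span of overlapping ChIP-seq peaks that held at least 1 peak of each of the 2 ChIP replicates. A site was called central where its midpoint lay in the middle of 3 equal parts of its chromosome, which on build WS220 was 5093066 to 10186131 on chromosome II, 4594583 to 9189163 on III, 5831280 to 11662559 on IV and 6974675 to 13949348 on V. This position rule used neither width nor score, and it gave 256 central sites out of 3117 in the genome, of which 54 were on II, 74 on III, 60 on IV and 68 on V. The outer parts, called arms below, held the other 1954 sites of these chromosomes.

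The animals were hermaphrodites of strain fem-2(b245), genotype fem-2(b245)III, labelled as young adults that contain a germline and grown at 20 °C, and every library of the study carried this genotype. The growth protocol in the labels speaks of gravid adults collected by sucrose flotation, so the exact adult stage was not settled by the labels. The fem-2 product is a protein phosphatase that promotes male fates in worm sex determination. Chromatin was precipitated with SDQ4501, an affinity-purified rabbit polyclonal antibody against T09A5.8, in 2 ChIP libraries. The study's 2 input libraries were not used here. Extracts came from whole worms, so germline and somatic nuclei were measured together. The labels do not say whether separate cultures gave the 2 replicates, and their spread may be technical.

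T09A5.8 is cec-3 in current gene names, a protein with a chromodomain, the fold by which HP1-type proteins recognise methylated histone tails. In this species methylation of histone H3 at lysine 9 and repeats are both concentrated on the autosome arms, where meiotic recombination is also frequent. The centres are rich in broadly expressed genes and carry that methylation mainly at scattered silent genes and repeats. The size, strength and distance to other sites of the central sites are the questions followed here.

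The measurements were peak positions and a score per peak, which is the authors' own value and is not defined in the lists. Replicate 1 had 3810 peaks and replicate 2 had 4000. The authors also deposited a series-level list of 15063 peaks, called with another version of the peak caller. In the replicate lists the score piled up at 3100, a value shared by 435 peaks of replicate 1 and 589 of replicate 2, with only 19 and 24 peaks above it. Scores were therefore turned into percentiles within each list, a site took the highest peak of each replicate, and a site was called top-scored where it reached 3100 or more in both. No read counts accompanied the peaks, so depth is unknown, and Wilson 95% intervals on shares cover counting error only. Since neighbouring sites of a chromosome are not independent, centre and arms were compared over the 4 chromosomes with an exact two-sided sign-flip permutation test. Its smallest possible p is 0.125, reached when all 4 chromosomes differ in the same direction, so it could not pass 0.05. Mappability, copy number and input reads were not examined, and their part in the results was not tested.

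T09A5.8 sites were sparse in the centres. They held 11.4 sites per Mb over 22.5 Mb, and the arms of the same chromosomes held 43.4 per Mb over 45.0 Mb. Chromosome III had the densest centre, with 16.1 sites per Mb, whereas II, IV and V lay close together at 10.6, 10.3 and 9.75. In the replicate lists, the centres carried 12.7 peaks per Mb in replicate 1 and 13.5 in replicate 2, a mean of 13.1 ± 0.566 (SD, n = 2), against 54.5 ± 1.92 in the arms. Sites covered 3.76% of the central bases and 17.8% of the arm bases.

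The sparse zone reached past the central part. When each chromosome was divided into 15 equal parts, the 5 central ones held between 7.34 and 14.0 sites per Mb over the 4 chromosomes together. The flanking parts were as sparse, with 10.9 per Mb in part 5 and 13.3 in part 11, both counted as arm. Density over the 4 together then rose to 36.7 in part 4 on the left and to 25.6 and 47.8 in parts 12 and 13 on the right. The rise was not the same on each chromosome. Chromosome V had 15.1 per Mb in part 4, and IV went from 29.2 in part 12 back to 13.7 in part 13. Within the centre the leftmost of its 5 equal bins was the poorest, with 33 of the 256 sites, and the other bins from left to right held 56, 62, 42 and 63. On chromosomes II and IV that leftmost bin held 5 sites each.

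**Figure D1:**
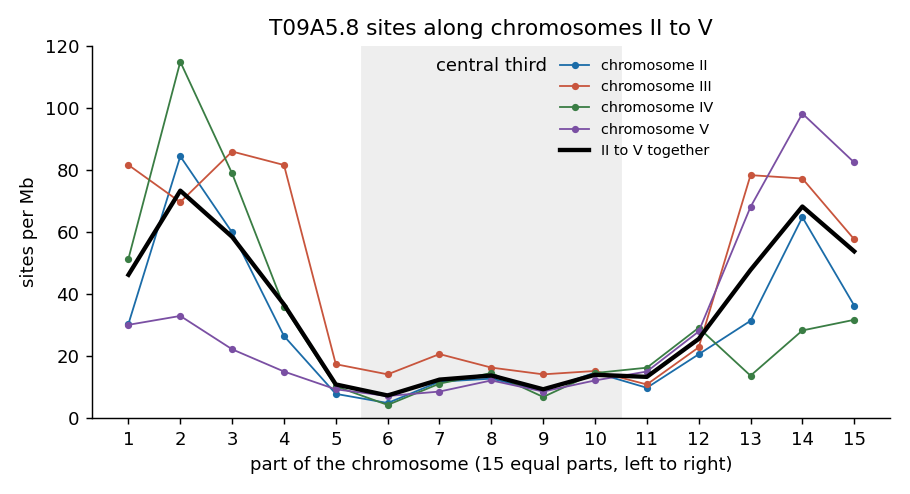
Sites per Mb (vertical axis) in 15 equal parts of each chromosome from left to right (horizontal axis), with a line for each of chromosomes II to V and a black line for the 4 together; the grey band marks the central part. The 4 centres stay low, from 7.34 to 14.0 sites per Mb together, and the sparse zone continues into parts 5 and 11 on either side.

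Central sites stood apart from one another. The nearest other site lay at a median of 20.9 kb from a central site, measured from edge to edge, and at 1.82 kb from an arm site. The median was 12.7 kb on chromosome III, 22.6 kb on II, 24.0 kb on IV and 32.0 kb on V, against 1.47 to 2.24 kb in the arms of these chromosomes. All 4 chromosomes differed in the same direction (exact sign-flip permutation p = 0.125). These arm values pool the left and right arm. Single arms ran from 0.995 kb in the left arm of III to 5.31 kb in the left arm of V and 9.01 kb in the right arm of IV. In the peak lists taken singly the median distance was 13.2 ± 0.119 kb in the centres and 1.22 ± 0.0516 kb in the arms (SD, n = 2), so the difference exceeded the spread between the replicates. When only peaks that outscored their list's median were kept, the medians averaged over chromosomes were 56.3 kb and 3.79 kb, and in the series-level list, which has narrower peaks, they were 204.5 and 159.75 bp.

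The difference in distance was larger than that in density. Arms had 3.82 times as many sites per Mb as centres, while the median nearest distance was 11.4 times as long in the centres. Neighbouring central sites were separated by 82.6 kb on average and by 44.9 kb at the median, and neighbouring arm sites by 18.6 kb on average and 4.82 kb at the median, so the mean gap differed 4.44-fold and the median gap 9.31-fold. Gaps of up to 5 kb made up 15.1% of the gaps between central sites (38 of 252) and 50.6% of those between arm sites (984 of 1946). The coefficient of variation of the gaps was 1.37 in the centres and 1.99 in the arms, and it ran from 0.941 on V to 1.70 on II among the centres. The arm values pool regions of very different density, such as a median gap of 2.37 kb in the right arm of V and 16.8 kb in the right arm of IV.

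Isolated sites, defined as those with no other site within 50 kb, were a large minority in the centres. They numbered 61 of 256, or 23.8% (Wilson interval 19.02 to 29.4), against 77 of 1954 arm sites, or 3.94% (3.16 to 4.90). Over all sites of the genome the share was 6.06%. The central share was 12.2% on III, 21.7% on IV, 31.5% on II and 32.4% on V. Each was above the 2.61% to 5.01% of both arms of the same chromosome together (exact sign-flip permutation p = 0.125). Single arms ranged more widely, from 1.29% in the left arm of III to 11.1% in the left arm of V and 13.7% in the right arm of IV. The last of these was above the centre of III. With 20 kb as the limit the shares were 52.3% of central and 9.77% of arm sites, and with 100 kb 7.42% and 1.28%. Among series-level peaks they were 3.65% and 0.257% at 50 kb, averaged over chromosomes. A further 126 central sites had another site within 50 kb on 1 side only, and 69 had one on both sides. At the other extreme, 32 central sites (12.5%) had a neighbour within 1 kb, as did 751 arm sites (38.4%).

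**Figure D2:**
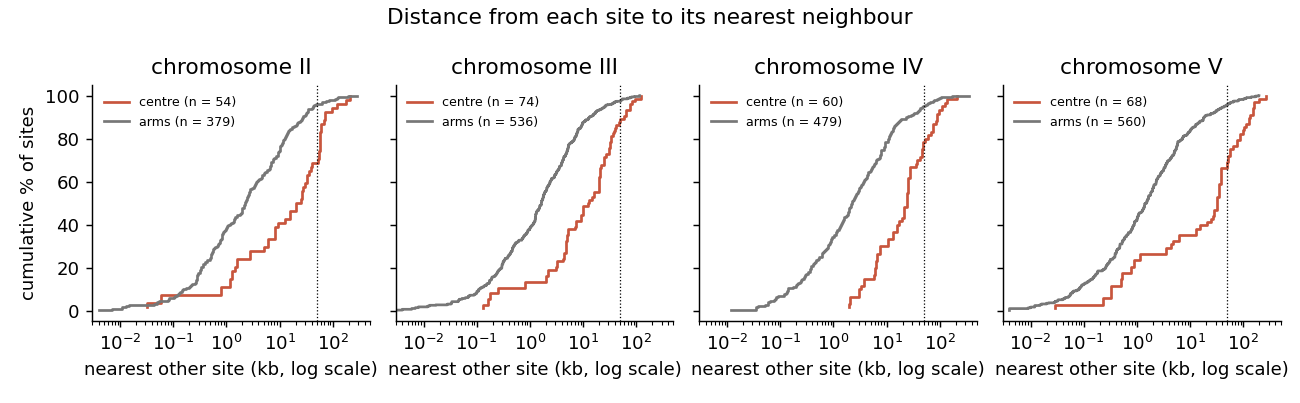
Cumulative percentage of sites (vertical axis) against the distance in kb to the nearest other site (horizontal axis, log scale), for central sites (red) and arm sites (grey) of chromosomes II to V; the dotted line marks 50 kb. The central curve lies to the right of the arm curve over most of its length on each chromosome, with 12.2% to 32.4% of central sites beyond the line. Central and arm distances still overlap on all 4 chromosomes. The shortest central distances were 32 bp on II, 132 bp on III, 1923 bp on IV and 29 bp on V.

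The most isolated central sites were of unequal strength. The first lay at 8949359 to 8951582 on chromosome V, was 2224 bp wide, stood 265.9 kb from the nearest other site and scored 1684 and 1361 in replicates 1 and 2. The next, 3976 bp at 8676165 to 8680140 on II, lay 210.3 kb from its neighbour, with scores of 884 and 1856. A site of 4103 bp at 7144596 to 7148698 on IV scored 3100 in both replicates, although the next site lay 776.7 kb away on its left and 207.3 kb away on its right. The remaining pair were weaker in replicate 1. The site at 7114313 to 7115665 on V, 194.1 kb from the nearest other site, scored 125 and 879, and the site at 9282541 to 9284443 on II, 176.0 kb away, scored 55.3 and 122. In the last of these the 2 replicate peaks shared only 5.41% of the span, so its membership rests on a small overlap.

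Most of the central length lay in long stretches without a site. Gaps of over 100 kb between central sites numbered 76 and made up 15.4 Mb, or 68.3% of the central length, while such gaps made up 29.0% of the arm length. Of 222 windows of 100 kb in the centres, 79 (35.6%) held no base of a site, against 55 of 444 (12.4%) in the arms. The share of empty windows was 40.0% on II, 37.9% on IV, 36.2% on V and 26.7% on III.

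The longest such stretch was 1056 kb on chromosome II, from 5378295 to 6434182. Replicate 1 had 0 peaks inside it and replicate 2 had 1, of 1661 bp with a score of 280. The series-level list had 9 peaks there, with scores of 1.86 to 7.87. The longest stretch on IV was 776.7 kb, from 6367853 to 7144595, and contained 1 peak of replicate 2 and 7 series-level peaks. On V it was 390.4 kb, from 7925484 to 8315915, with 1 peak of replicate 1 and 7 series-level peaks. On III it was 299.0 kb, from 4786029 to 5085033, and held 0 peaks of any of the lists.

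Where central sites were not alone they mostly formed small groups. With sites joined across gaps of up to 20 kb, the 256 sites fell into 183 runs, of which 134 were single sites, 31 were pairs and 18 held 3 or more sites. These 18 runs took in 60 sites. The 2 runs with the most sites had 5 each, and both were on chromosome III. In the first, 62.1 kb long at 5777564 to 5839656, the sites ran from a mean score percentile of 11.05 to 92.9 and from 1242 to 13450 bp in width. In the second, 55.6 kb at 7443835 to 7499447, the highest scores were 1896 and 965 and the widest site was 4826 bp. The next 2 runs tied at 4 sites. That at 8770114 to 8802608 on III had 1 top-scored site, as did the first run, and that at 9619283 to 9646723 on II had scores of 257 to 1453 in replicate 1 and 241 to 2294 in replicate 2, with 0 top-scored sites. The mean percentile ran from 4.32 to 73.4 in the second run and from 9.20 to 92.9 in the run of 4 sites on III. In the run on II the range was narrower, from 38.0 to 78.0. Sites of widely different score thus stood side by side in these runs on III.

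The widths of central and arm sites overlapped over most of their range. The median width of a central site was 2420.5 bp, with quartiles of 1574 and 3920 bp and a range of 974 to 17737 bp, and arm sites had a median of 2573.5 bp. The median was lower in the centre than in the arms on II (2211.5 against 2458 bp), III (2608.5 against 2672.5 bp) and V (2200 against 2910 bp), and higher on IV (2639 against 2340 bp). The mean difference of 180 bp (SD 420 over 4 chromosomes) gave an exact sign-flip permutation p of 0.500. In the replicate lists the median peak was 2005 bp in the centres and 2009 bp in the arms in replicate 1, and 2063 and 1995 bp in replicate 2, so the direction was not the same in both.

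The broadest class was scarcer in the centres. Sites wider than 10 kb numbered 9 of 256, or 3.52% (Wilson interval 1.86 to 6.55), against 151 of 1954 arm sites, or 7.73% (6.62 to 8.996), and 7.64% of all sites. The central share was lower than that of both arms together on each of the 4 chromosomes (exact sign-flip permutation p = 0.125). It ran from 1.67% against 5.85% on IV to 5.88% against 9.64% on V. Single arms ran from 2.41% in the right arm of II to 13.6% in the left arm of III. The right arm of III, with 3.08%, was below the centre of III, with 4.05%. In the replicate lists, 2.55% ± 0.130 of central peaks and 5.38% ± 0.0741 of arm peaks were wider than 10 kb (SD, n = 2). Among series-level peaks the shares were 0.0822% and 0.438%. The widest site was 17737 bp among the 256 central sites and 41199 bp among the 1954 arm sites. A maximum tends to rise with the number of sites, so these values are not a like comparison.

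The 5 widest central sites were top-scored in both replicates. They were 17737 bp at 10713673 to 10731409 on V, 13450 bp at 5777564 to 5791013 on III, 13401 bp at 8890429 to 8903829 on II, 12335 bp at 6563254 to 6575588 on III and 12175 bp at 11475784 to 11487958 on V. The replicates drew the first 4 at nearly the same extent, with 92.7% to 99.4% of the span in peaks of both. For the fifth the peak was 12175 bp in replicate 1 and 9216 bp in replicate 2. This site and the one on II were isolated, at 149.3 and 55.1 kb from the nearest other site.

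Scores were compared next. The mean score percentile of a site had a median of 56.4 in the centres and 56.8 in the arms. By chromosome the medians were 53.7 against 52.7 on II, 63.3 against 58.3 on III, 60.2 against 56.8 on IV and 49.5 against 59.4 on V, so V went the other way from the rest. The exact sign-flip permutation p was 1. The replicates differed in direction, with a median peak percentile of 48.2 in the centres and 50.8 in the arms in replicate 1, and 54.0 and 49.9 in replicate 2. In replicate 2 alone the centre was higher on all 4 chromosomes, by 5.32 points on average (exact sign-flip permutation p = 0.125). Against left arms alone, central sites had the lower median on all 4, with a mean difference of -0.211 points (exact sign-flip permutation p = 0.125). The scores themselves were spread over almost the whole scale, from 50.8 to 3202 in replicate 1 and from 54.0 to 3233 in replicate 2.

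At the low end of the score range and at the top score itself the shares lay further apart than the medians. The shares over percentile 75 did not. Of the central sites, 22.3% (Wilson interval 17.6 to 27.8) had a mean percentile under 25, compared with 14.5% (13.0 to 16.2) of arm sites. The shares over 75 were 28.9% and 29.1%. The lower quartile of the mean percentile was lower in the centre on II (24.7 against 31.0), III (26.3 against 37.8) and V (28.9 against 35.0). On IV it was higher in the centre, at 40.9 against 34.4. Over all sites of the genome this quartile was 35.0. Top-scored sites numbered 45 of 256, or 17.6% (13.4 to 22.7), against 251 of 1954 arm sites, or 12.8% (11.4 to 14.4), and 13.1% of all sites. The share was 21.7% in the centre of IV, 20.3% in III, 16.2% in V and 11.1% in II, against 11.3%, 18.7%, 9.82% and 11.1% in the arms. All 4 differences from both arms together were positive, but that on II was 0.0293 percentage points, and the exact sign-flip permutation p was 0.125. Single arms ran from 7.91% in the right arm of IV to 23.6% in the left arm of III. The latter was above the centre of III, and the right arm of II, with 13.9%, was above the centre of II. When the centre was widened to the inner 2 of 4 equal parts, 3 of 4 differences from both arms were positive (exact sign-flip permutation p = 0.250). Sites that reached 3100 in a single replicate went the other way, with 13 central sites (5.08%) and 145 arm sites (7.42%). All 13 central ones did so in replicate 2, as did 121 of those in the arms. The split by percentile and the comparison of top-scored sites were chosen after the data were seen.

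**Figure D3:**
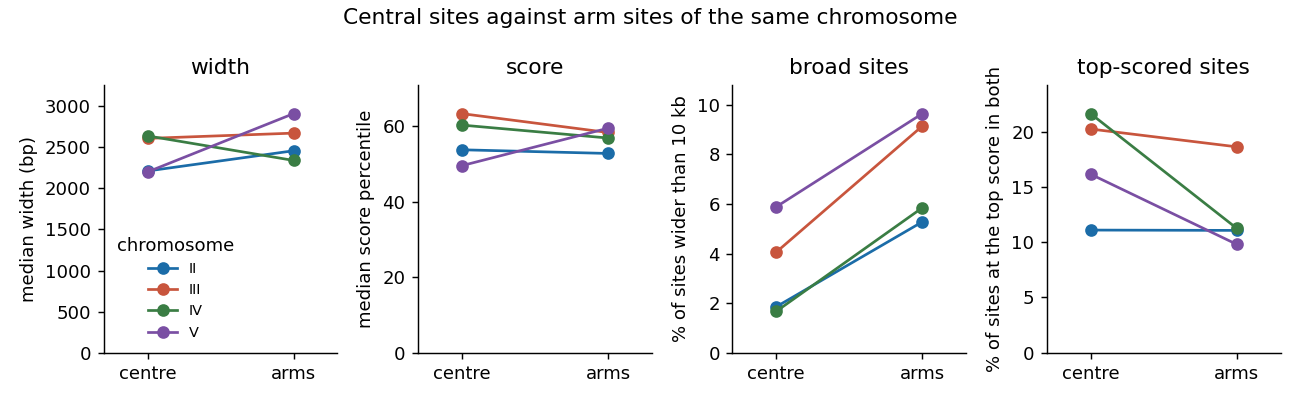
Values of central and arm sites joined by a line for each of chromosomes II to V, for the median width in bp, the median score percentile, the percentage of sites wider than 10 kb and the percentage of sites at the top score in both replicates. Both arms of a chromosome are pooled. The medians of width and score cross between chromosomes, and the share of broad sites is lower in every centre. The share of top-scored sites is higher in the centre on III, IV and V and nearly equal on II.

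The top-scored central sites were set against the top-scored arm sites. Their median width was 6735 bp (3477 to 17737 bp), against 7744 bp (2475 to 41199 bp) in the arms. Of the 45, 8 were wider than 10 kb (17.8%, Wilson interval 9.29 to 31.3), compared with 79 of the 251 in the arms (31.5%, 26.0 to 37.5). The mean difference of the medians was 737 bp over the 4 chromosomes, with 3 lower in the centre, and an exact sign-flip permutation p of 0.250. Isolated sites numbered 8 of the 45 (17.8%, Wilson interval 9.29 to 31.3), against 5 of the 251 in the arms (1.99%, 0.854 to 4.58). Among all central and all arm sites the isolated shares were 23.8% and 3.94%, so neither top-scored share was above that of its region. The isolated top-scored central sites were 3 on II, 3 on IV and 2 on V. None was on III, where the nearest other site lay at a median of 7.50 kb from the 15 top-scored sites. The nearest sites of the 8 isolated ones were 55.1 to 207.3 kb away, and their widths ran from 3477 to 13401 bp.

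The 10 highest-ranked central sites by mean percentile could be ordered only in part, because 44 of the 45 top-scored sites tied at 3100 in both lists. The single site above the tie was 8963 bp at 6933973 to 6942935 on II, with scores of 3202 and 3100. The tie was broken by the series-level score, a choice made after the values were seen. The next sites were then 5815 bp at 7708332 to 7714146 on III, with a series-level score of 126, the isolated site on IV described above, with 110, and the widest site on V, with 96.5. They were followed by 3477 bp at 7442452 to 7445928 on V, which was 103.4 kb from the nearest other site and scored 75.9, the site of 12335 bp on III, with 70.6, and 6069 bp at 8004008 to 8010076 on IV, with 69.4. The last 3 were the site of 13450 bp on III with 68.3, 8837 bp at 13153550 to 13162386 on V with 67.8, and the site of 13401 bp on II with 65.1. The isolated site on IV thus had the second highest series-level score of the 256 while being only 4103 bp wide.

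Width and score went together within the centres. Across the 256 sites, which share libraries and a peak caller and are not independent, Spearman's rho between width and mean score percentile was 0.867, and it was 0.791 across the arm sites. Central sites under percentile 25 in both lists had a median width of 1254 bp, and those below the top score a median of 2066 bp. Distance to the nearest other site was nearly unrelated to either, with a rho of -0.0740 with width and of -0.0825 with score. Both measures come from the same peak calls and are not separate readings of binding.

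**Figure D4:**
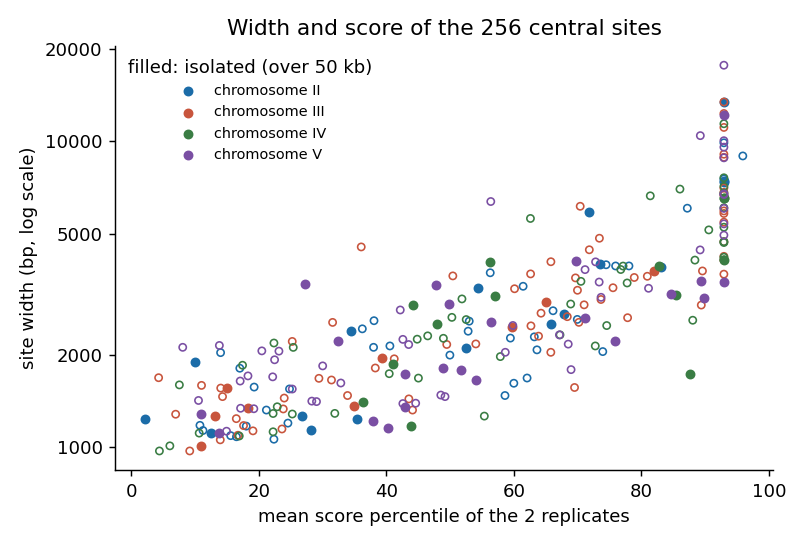
Width in bp (vertical axis, log scale) against the mean score percentile of the 2 replicates (horizontal axis) for the 256 central sites, coloured by chromosome, with filled points for the 61 isolated sites. Width rises with score from 974 to 17737 bp, the tied top scores form the column on the right, and filled points occur at all levels of both.

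Isolated and other sites were then compared within the centres and within the arms, a split chosen after the data were seen. The 61 isolated central sites had a median width of 2532 bp and a median score percentile of 52.5, and the other 195 had 2333 bp and 59.5. The 77 isolated arm sites had 1703 bp and 39.3, against 2630 bp and 57.4 for the other arm sites. In the arms the isolated sites were narrower at the median on each of the 4 chromosomes. In the centres they were wider on II, IV and V, and narrower on III, with 1568 against 2746 bp, where 9 were isolated. The median score percentile of isolated central sites was higher than that of the others on II (54.4 against 53.0) and V (50.7 against 48.9), and lower on IV (57.1 against 62.6) and III (35.0 against 65.8), whereas in the arms it was lower on each chromosome. In the replicate lists taken singly, isolated central peaks were narrower than the other central peaks, at 1806.5 ± 40.3 against 2044 ± 32.5 bp, and isolated arm peaks were narrower by more, at 1540 ± 19.8 against 2013.75 ± 10.3 bp (SD, n = 2). The direction of the width difference in the centres therefore differed between sites and the single lists. Those lists also hold peaks that the other replicate lacked, with median widths of 1202 bp in replicate 1 and 1282 bp in replicate 2 in the centres. What those peaks contributed was not tested, and neither was the difference between centre and arms.

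**Figure D5:**
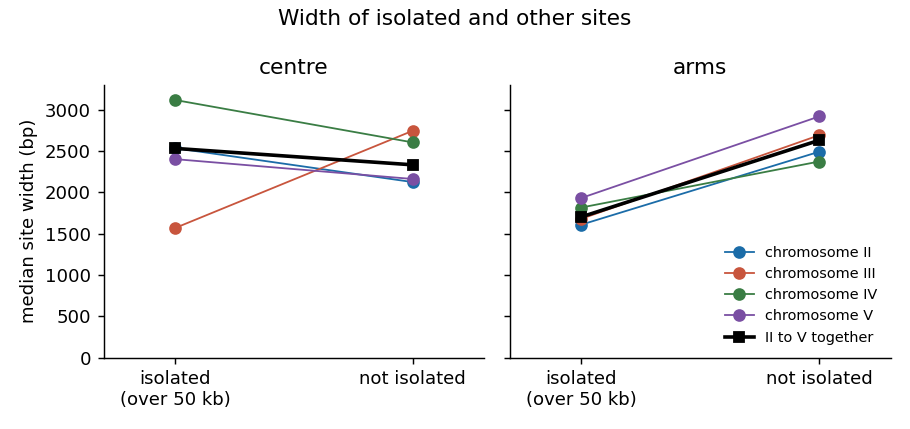
Median site width in bp of isolated sites (no other site within 50 kb) and of the other sites, in the centres (left) and arms (right), with a line for each of chromosomes II to V and a black line for the 4 together. The arm lines all rise from isolated to other sites (1703 to 2630 bp together), whereas in the centres 3 of 4 lines fall (2532 to 2333 bp together).

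At the central sites the 2 replicates drew similar spans. By definition a site holds peaks of both, so the values in this paragraph leave out peaks found in a single replicate. Of the 256 sites, 242 (94.5%) consisted of exactly 1 peak of each replicate, against 85.8% of arm sites. The left edges of the 2 replicates differed by a median of 77 bp and the right edges by 79.5 bp, and 90.8% of the median site lay in peaks of both. Arm sites were much the same, at 86 bp, 88 bp and 90.8%. Spearman's rho between the replicate scores was 0.902 over the 256 sites and 0.838 over the 211 that were not top-scored in both, beside 0.879 and 0.830 in the arms. Score percentiles differed by more than 25 points at 26 central sites (10.2%), and at 169 arm sites (8.65%), with replicate 2 the higher at 20 and 113 of them.

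Central peaks found in a single replicate were few and mostly weak. In replicate 1, 268 of 285 central peaks (94.0%, Wilson interval 90.7 to 96.2) overlapped a peak of replicate 2, against 90.4% of arm peaks and 90.8% of all its peaks. In replicate 2, 260 of 303 (85.8%, 81.4 to 89.3) overlapped a peak of replicate 1, against 83.9% of arm peaks and 83.8% of all its peaks. The mean share over both lists was higher in the centre on all 4 chromosomes, by 0.124 percentage points on V and 9.34 on II, with an exact sign-flip permutation p of 0.125. In replicate 2 alone the share was lower in the centre on V (82.9% against 86.5%) and on III (86.05% against 86.12%). The mean difference was -0.123 points when only peaks above the median score were kept, with shares of 87.4% in the centres and 87.5% in the arms. The median score was 86.2 for the 17 central peaks that replicate 2 lacked, of which the highest was 214. It was 142 for the 43 that replicate 1 lacked, and the strongest was 9168 bp at 8475175 to 8484342 on V with a score of 1471, followed on its right by another replicate 2 peak of 4435 bp at 8484373 to 8488807 with 853.

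The series-level list had a peak at each of the 256 central sites and at all but 4 of the 1954 arm sites. The sites held between 1 and 9 of its peaks, and 93 held exactly 1. Of the 954 series-level peaks in the centres, 557 (58.4%) touched a site, with a median score of 10.4, and 281 (29.5%, Wilson interval 26.6 to 32.4) overlapped neither replicate, with a median score of 4.37. In the arms 27.0% (26.1 to 27.9) overlapped neither. The strongest central one of this kind was 4196 bp at 8854602 to 8858797 on III, with a score of 41.9. On V, the 338.6 kb from 8610733 to 8949358 without a site held 32 series-level peaks, more than any other of the 3 longest stretches of each chromosome, which held 0 to 9. Their scores of 1.52 to 9.89 were low, and replicate 2 had 1 peak in that stretch. This stretch and the single-replicate peaks above were chosen after their values were seen. No test was made on these counts, because the series-level peaks come from the same libraries.

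The sites at the edge of the central part were not of one kind. On the left, the first sites inside were 2586 bp on II (scores 457 and 481), 2996 bp on III (517 and 1365), 6535 bp on IV (3100 and 3100) and 1353 bp on V (125 and 879). The last sites outside were 2150 bp (523 and 440), 2446 bp (292 and 241), 3691 bp (114 and 438) and 1650 bp (109 and 402) in the same order. On the right, the last sites inside were 1270 bp (104 and 251), 1266 bp (77.4 and 116), 7124 bp (3100 and 3100) and 3082 bp (2908 and 3100), and the first outside were 1366 bp (214 and 245), 3357 bp (1226 and 1903), 1264 bp (117 and 149) and 2004 bp (121 and 436).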

How the data were processed

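The authors called the peaks of each ChIP library with MACS and a series-level list with MACS v2, on WormBase WS220, per the file headers and source columns. Per the labels' protocols, ground worms were fixed in 1% formaldehyde for 10 min, and fragments of 250 to 500 bp were amplified for 18 cycles. The score deposited by the authors has no stated definition. Aligner, thresholds and handling of input reads: not given in the sources used here. Binding too weak to be called leaves no trace in such lists.

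Peaks overlapping by at least 1 bp were merged. The largest peak end in any list stood for chromosome length. Runs joined sites across gaps of up to 20 kb. Sites named were the 10 highest by mean percentile, the 5 widest, the 5 most isolated, the 3 runs with the most sites, the longest empty stretch per chromosome and the sites at the boundaries. The members, definitions and lists were chosen with earlier results of these data known. No genome or annotation of WS220 was used, so no sequence or gene is given at a site, and the symbol cec-3 came from WBcel235 gene names. Alternatives were an overlap of 50% of the shorter peak, stronger peaks only, single lists, the inner 2 of 4 equal parts as centre, chromosome I added, sites wholly within a part and, added after seeing the data, single arms and top-scored sites alone. Merging, distances and the sign-flip test were checked on simulated data. Software was pandas 2.3.3, scipy 1.17.1 and matplotlib 3.10.9 under Python 3.11.15, with numpy 2.4.6.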

Additional observations from a re-analysis of the deposited data

How the results depend on the processing

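The longer nearest distance, the higher share of isolated sites, the lower share of sites wider than 10 kb and the higher share of top-scored sites in the centres kept their direction under every alternative run for each, but a test that cannot pass 0.05 says nothing about their stability. With chromosome I added its smallest p was 0.0625. Single arms were not among the alternatives for the shares of broad and top-scored sites. The nearest distance differed by 13.3 to 52.6 kb, except by 44.75 bp in the series-level list; the cause was not tested. The difference in isolated sites was 20.4 points for 50 kb, 42.7 for 20 kb and 6.10 for 100 kb. The width difference turned positive without replicate 1 (132.625 bp; -19.5 bp without replicate 2), in the series-level list (2.875 bp) and against right arms alone (28.75 bp). The score difference turned positive without replicate 1 (5.32 points, and -1.10 without replicate 2), with peaks above the median score (4.11) and against right arms alone (3.86). Against left arms alone it stayed negative (-0.211). The share of peaks found in both replicates turned to -0.123 points with peaks above the median score; the cause was not tested. Runs of 3 or more sites numbered 10 with gaps of up to 10 kb and 36 with 50 kb. No paired analysis was possible because replicate numbers pair ChIP with input libraries, and the latter did not enter; centre and arms were paired by chromosome in every test. Without read counts, what weak peaks owe to depth could not be examined.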
